A study of Homo sapiens with 6 samples.

Results

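The 33 genes described here are listed as target genes of the pathway of p53, a tumour suppressor. They were chosen by their symbols, with earlier results of these data known. Each was found in the deposited table by Ensembl ID and matched to its symbol in GENCODE 29. All 33 of them were present among the 58381 gene IDs of the table, and 33 of 33 passed the filter on low values, a mean of at least 10 normalized counts over the 6 libraries, that 16047 genes passed. The RNA came from MCF10AT1 cells, a human breast epithelial line. It was derived from MCF10A cells that carried activated HRAS and had been grown as a xenograft. The first group is the CD24low, CD44high fraction of a fluorescence-activated sort (3 libraries, called CSC in the column descriptions), and the second is the CD24high, CD44-positive fraction of the same line (3 libraries, called Bulk there). Both groups carry the HRAS transgene of the line and were cultured in DMEM/F12 supplemented with horse serum, insulin, EGF, cholera toxin and hydrocortisone. The labels name no DNA-damaging agent, so the values are levels without a named p53-activating treatment. Both groups come from 1 cell line. The labels do not tell whether libraries of a group stem from different cultures, so every p-value here reflects library-to-library spread that could be technical alone.

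p53 is a transcription factor that is kept scarce in unstressed cells by the ubiquitin ligase MDM2, itself the product of a p53 target gene. When DNA damage, oncogene signalling or other stress releases p53 from MDM2, p53 binds a response element made of a pair of decamer half-sites and raises the transcription of genes that halt the cell cycle, repair DNA, alter metabolism or lead to apoptosis. In breast epithelium p53 is best known as a suppressor of tumours. MCF10A cells, the parents of the line used here, are known to have lost CDKN2A, the locus of the p53 activator ARF.

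Matches to the consensus of the p53 response element are shown for the promoters that held one, because this is a list of p53 target genes. Promoter windows of RefSeq (GRCh38.p14), from 250 bases before to 50 bases after a start site and 300 bases long, were searched for the consensus p53 response element. It is a run of 20 bases made of 2 half-sites of 10 bases with no spacer, and up to 3 mismatches were allowed. The consensus is its own reverse complement, so 1 search covers both strands. Of the 33 genes, 26 had a window and 7 had none in the table (FBXO22, GADD45A, PHLDA3, RRM2B, TNFRSF10A, TNFRSF10B and TP53INP1). An element was found for 8 of the 26 genes (30.8%), against 1733 of 27058 genes with a window (6.40%). By window, 9 of 37 member windows held one, against 5.21% of all 34796 windows. Windows of the same gene can overlap, so they are not independent. The MDM2 windows that start at chr12:68808767 and chr12:68808774 held the same elements, and both are among the 9. A stricter rule, also with up to 3 mismatches, keeps the 4 core bases of both half-sites whole. Under it 4 members (15.4%: AEN, FAS, GDF15 and SESN1) and 0.525% of all genes held one. Both MDM2 elements depart from the consensus in a core and fail that rule. The looser rule was adopted after that result was seen. A match describes letters and is not evidence of binding in these cells. The elements are printed 5′ to 3′ on the strand of the gene, with bases that depart from the consensus in capitals.
AEN, exon, chr15:88621306-88621325: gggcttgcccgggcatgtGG
DDB2, exon, chr11:47214969-47214988: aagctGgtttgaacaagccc
FAS, exon, chr10:88991309-88991328: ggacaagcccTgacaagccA
FDXR, exon, chr17:74872996-74873015, minus strand: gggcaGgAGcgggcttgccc
GDF15, exon, chr19:18386186-18386205: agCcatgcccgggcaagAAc
MDM2, intron, chr12:68808923-68808942: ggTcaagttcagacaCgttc
MDM2, intron, chr12:68808961-68808980: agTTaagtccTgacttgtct
SESN1, intron, chr6:109009018-109009037, minus strand: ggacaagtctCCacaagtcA
XPC, exon, chr3:14178570-14178589, minus strand: gaaTttgcccagacaagcAA
The words exon and intron give the position of each element in the GENCODE 29 model of its own gene, over all its transcripts. MDM2 was the member with a pair of elements. They lie in an intron, 747 and 785 bases from the annotated 5′ end of the gene and 18 bases apart, in the internal promoter that is known to answer to p53. The stretch that holds both, chr12:68808903-68809000 on the plus strand, is shown with the elements in capitals because MDM2 had the smallest p-value of the 33 genes.
MDM2: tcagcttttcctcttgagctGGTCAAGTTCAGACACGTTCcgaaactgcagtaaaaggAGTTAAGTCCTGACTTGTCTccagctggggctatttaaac
The window of CDKN1A, whose known elements lie farther upstream, held no element, and its best match had 5 mismatches.

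The libraries held 16691162 to 27293177 recovered reads each. Genes of mitochondrial and cytosolic rRNA, with rRNA pseudogenes, took 7.15%, 7.07% and 1.97% of reads in CD24low replicates 1, 2 and 3, and 1.30%, 2.27% and 10.2% in CD24high replicates 1, 2 and 3. Differences within the 3 libraries above 5% rRNA and within the 3 below are therefore given beside the pooled ones for the genes without overlap between groups and for those whose sign differs between the classes. Each such class holds 1 or 2 libraries of a group, so its differences have no test. The low rRNA class holds CD24low replicate 3 alone of the CD24low group, and the high rRNA class holds CD24high replicate 3 alone of the CD24high group. Differences between the classes therefore cannot be told apart from differences of those single libraries. On the first principal component of all genes (50.0% of the variance) CD24low replicate 3 (-3.83) lay nearest to the CD24high libraries (15.9 to 34.2), and the other CD24low libraries lay at -22.9 and -55.0. CD24 RNA stood at 588, 329 and 1370 normalized counts in CD24low libraries, against 4043, 2325 and 5687 in CD24high libraries. CD44 RNA was not higher in the CD44high fraction, at 8294, 7479 and 6866 normalized counts in CD24low libraries and 8553, 7878 and 8993 in CD24high libraries, and its groups overlapped. All 5 epithelial markers tested (EPCAM, CDH1, KRT5, KRT8 and KRT18) were present, with a summed level of 64795 to 99353 normalized counts in CD24low libraries and 92704 to 113830 in CD24high libraries. The differences of all 5 were below 0, 3 of them without overlap between groups, and CDH1 was lower in CD24low by DESeq2 (log2 difference -0.90 by limma, DESeq2 adjusted p = 0.013). The 5 mesenchymal markers (VIM, FN1, ZEB1, ZEB2 and CDH2) summed to 16190.3 to 55757 normalized counts in CD24low libraries, against 4449 to 8288 in CD24high libraries, and 4 of the 5 were higher in CD24low by DESeq2. The 4 leukocyte markers summed to 70.5 to 156 normalized counts in CD24low libraries and 48.1 to 90.6 in CD24high libraries, nearly all of it CD14 (69.6, 124 and 155 in CD24low, 48.1, 78.0 and 90.6 in CD24high libraries), with CD3E at 0 in all 6 and PTPRC at 1.98 or less. The 3 endothelial markers summed to 105 to 342 in CD24low libraries and 85.5 to 395 in CD24high libraries, nearly all of it PECAM1, with VWF at 0.955 or less and CDH5 at 4.38 or less. The part of the rRNA share and of the epithelial and mesenchymal signals in the differences of p53 targets was not tested.

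The p53 targets lay lower in CD24low cells more often than higher, by small amounts. They were chosen with earlier results of these data known, so the counts here describe them and were not tested as a set. Of the 33 genes, 25 had a log2 difference (CD24low minus CD24high) below 0 and 8 above 0, against 8185 below and 7862 above among all genes tested. Their median was -0.13 on the log2 scale, against -0.01 for all genes, and they ran from -0.55 (MDM2) to 0.24 (TP53INP1). No member passed limma's adjusted p of 0.05, as no gene did of the 16047 tested (0%), and edgeR's quasi-likelihood test with Benjamini-Hochberg adjustment called 0 genes too. By DESeq2 on the recovered reads 2 members, MDM2 and CDKN1A, were lower in CD24low cells, where 1.15% of all genes were called lower, and 0 members were higher, where 1.36% of all genes were. At an unadjusted edgeR p under 0.05, 8 members passed in either direction, against 2263 of 16047 genes. At an unadjusted limma p under 0.05, 8 members were lower and 0 higher. Among all genes, 7.15% were lower at that limma level, and 1017 of 16047 were higher. In 10 members (30.3%) all 3 CD24low libraries were lower than all 3 CD24high ones, against 9.32% of all genes. In 0 members were all 3 CD24low libraries higher, against 10.2% of all genes. The sort compares populations in bulk, so fewer cells that express a target and less RNA of that target per cell cannot be told apart.

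**Figure D1:**
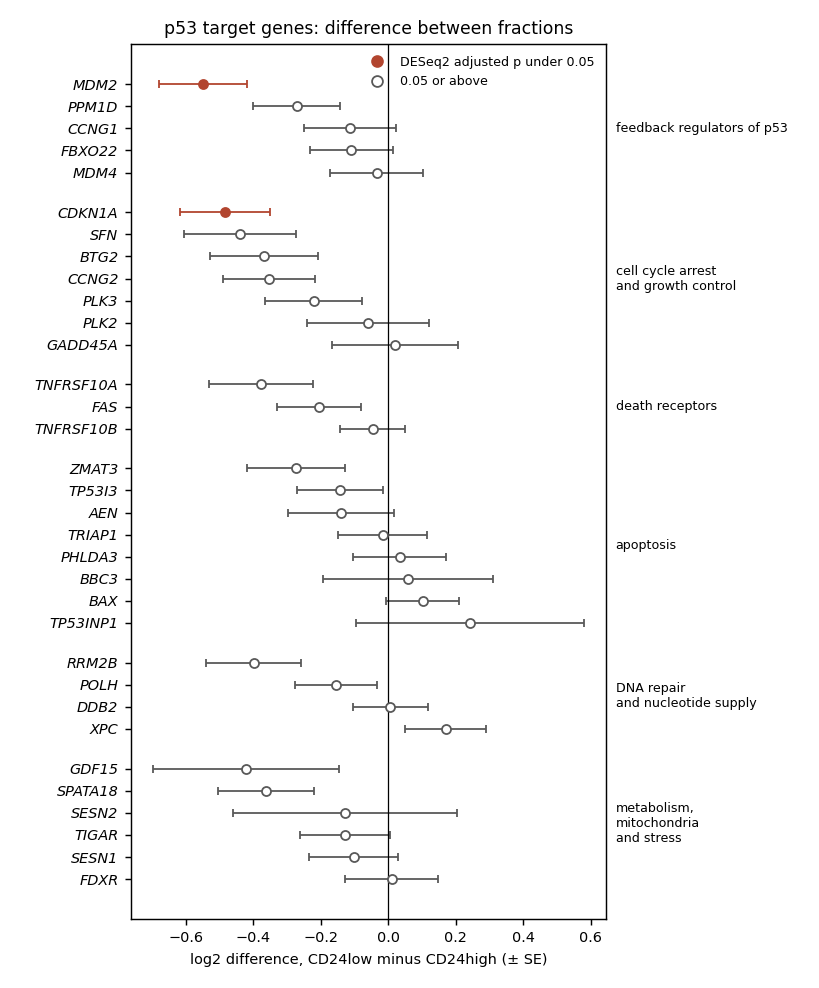
Log2 difference of each of the 33 p53 target genes (x axis, CD24low minus CD24high, log2 (normalized count + 1), point with SE, 3 libraries a group), grouped by role on the y axis. MDM2 (-0.55) and CDKN1A (-0.48), filled, were the 2 genes called by DESeq2, and 25 of 33 points lie left of 0.

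Within the low rRNA libraries the members' median log2 difference was -0.13, with 21 of 33 below 0, and within the high rRNA libraries it was -0.18, with 26 of 33 below 0. In 17 members the difference was below 0 in both, and in 13 its sign differed between the classes. The median kept its sign in each of the alternative settings tried.

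The feedback regulators, whose products hold p53 in check, all had differences below 0 (5 of 5, median -0.11). By DESeq2 1 of the 5, MDM2, was lower (1.15% of all genes). MDM2 lies at chr12:68808176-68850686 on the plus strand (GRCh38), and its product ubiquitinates p53. It had 3399, 3347 and 3961 normalized counts in CD24low libraries, against 5541.5, 4459 and 5707 in CD24high libraries. Every CD24low library was below every CD24high library, and the nearest pair was CD24low replicate 3 and CD24high replicate 2. The means were 3569 ± 341 in CD24low cells and 5236 ± 678 in CD24high cells (SD, n = 3 each), a log2 difference of -0.55 with an SE of 0.13 and a 95% interval of -0.84 to -0.26. The adjusted p was 0.00796 by DESeq2 and 0.142 by limma. The call by DESeq2 was lost without CD24low replicate 1 (adjusted p = 0.125), CD24low replicate 2 (0.0921), CD24high replicate 1 (0.0779) or CD24high replicate 3 (0.0743), and the smallest adjusted p, 0.00206, came without CD24high replicate 2. The difference was -0.33 within the low rRNA libraries and -0.76 within the high rRNA ones, and the DESeq2 adjusted p with the rRNA class as a covariate was 0.0402. AC025423.2, a short annotated gene of 439 exonic bases that lies wholly within exons of MDM2 on the same strand, had 338, 331 and 344 normalized counts in CD24low libraries and 511, 449 and 495 in CD24high libraries. Reads of these 2 genes cannot be assigned apart from the table.

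PPM1D encodes the phosphatase WIP1 that removes activating phosphates from p53 and its kinases. It was the second of the 5 feedback genes lower without overlap between groups (9.32% of all genes). Its normalized counts were 303, 314 and 299 in CD24low libraries, against 398, 336 and 374 in CD24high libraries. The highest CD24low library, at 314, lay just under the lowest CD24high library, at 336. Its log2 difference was -0.27 (SE 0.13, adjusted p = 0.393 by limma and 0.474 by DESeq2), and it was alike within the low (-0.29) and high (-0.28) rRNA libraries. MDM4, the MDM2 partner that blocks the transactivation domain of p53, had 799, 777 and 666 normalized counts in CD24low libraries and 821.5, 648 and 833 in CD24high libraries. These groups overlapped, with a log2 difference of -0.03 and a 95% interval of -0.34 to 0.27. CCNG1, the cyclin G1 gene whose product acts with the phosphatase PP2A on MDM2, had 3360.0 to 3929.6 normalized counts in CD24low libraries and 3429 to 4766.5 in CD24high libraries, and FBXO22, an F-box protein of a ubiquitin ligase, had 733 to 827 in CD24low and 757 to 947 in CD24high libraries. Both overlapped, with log2 differences of -0.11 for CCNG1 and -0.11 for FBXO22. CCNG1 was at -0.19 within the low and 0.08 within the high rRNA libraries.

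The genes of cell cycle arrest and growth control had the lowest median of the 6 roles (-0.35, n = 7), with 6 of 7 below 0, 4 of 7 lower without overlap between groups (9.32% of all genes) and 1 lower by DESeq2 (1.15% of all genes). That 1 gene was CDKN1A, at chr6:36676460-36687339 on the plus strand, which encodes p21, the cyclin-dependent kinase inhibitor through which p53 stops the cell cycle in G1. It had 2845, 2588 and 3272.5 normalized counts in CD24low libraries, against 4151, 3510.0 and 4522 in CD24high libraries. No CD24low library reached the lowest CD24high one, and within each group replicate 3 was the highest and replicate 2 the lowest, as for MDM2. The means were 2902 ± 346 in CD24low cells and 4061 ± 512 in CD24high cells (SD, n = 3 each), a log2 difference of -0.48 with an SE of 0.13 and a 95% interval of -0.78 to -0.19. The adjusted p was 0.0398 by DESeq2 and 0.181 by limma. The DESeq2 call was lost without CD24low replicate 1 (0.247), CD24low replicate 2 (0.278), CD24high replicate 1 (0.171) or CD24high replicate 3 (0.178), with the rRNA class as a covariate (0.126) and without the filter on low values (0.0519). The difference was -0.22 within the low rRNA libraries and -0.74 within the high rRNA ones.

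SFN encodes 14-3-3 sigma, an epithelial protein that holds the mitotic cyclin B and CDK1 complex in the cytoplasm. It had 3996, 2619 and 3834 normalized counts in CD24low libraries, against 4909, 4124 and 4943 in CD24high libraries. The CD24low libraries were all below the CD24high ones, but CD24low replicate 1, at 3996, was close to CD24high replicate 2, at 4124. The log2 difference was -0.44 (SE 0.17, adjusted p = 0.299 by limma and 0.195 by DESeq2), and it was -0.25 without CD24low replicate 2. Within the low and high rRNA libraries it was -0.23 and -0.61. SFN was also the most abundant of the 33 genes per length, at 3084 normalized counts per kb of exon over the 6 libraries.

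CCNG2, a cyclin G family member linked to arrest and to quiescence, had 478, 588 and 503.5 normalized counts in CD24low libraries, against 732, 686 and 589 in CD24high libraries. CD24low replicate 2 and CD24high replicate 3 were within 1 count of each other, so the groups only just failed to overlap. BTG2, an anti-proliferative gene that recruits a deadenylase to messenger RNAs, had 133, 150.0 and 174 in CD24low libraries, against 202, 197 and 190.0 in CD24high libraries. The CD24high libraries of BTG2 were close together (SD 5.86 on a mean of 196), and the CD24low ones were spread (SD 20.7 on a mean of 152). The log2 differences were -0.35 for CCNG2 (SE 0.14) and -0.37 for BTG2 (SE 0.16), with adjusted p values of 0.303 and 0.357 by limma. Within the low rRNA libraries they were -0.49 for CCNG2 and -0.19 for BTG2, and within the high rRNA ones -0.15 for CCNG2 and -0.42 for BTG2. PLK3, a stress-activated polo-like kinase, overlapped between groups (325 to 434 in CD24low and 409 to 437 in CD24high libraries, log2 difference -0.22). PLK2, its paralogue, overlapped more widely, with 1785 to 2144.5 in CD24low and 1520.4 to 2499 in CD24high libraries and a log2 difference of -0.06 (0.08 within the low and -0.26 within the high rRNA libraries). GADD45A, a growth arrest gene that activates stress kinases, was the exception of this role, with 712, 615 and 471 normalized counts in CD24low libraries and 724, 551 and 497 in CD24high libraries. The groups of GADD45A overlapped throughout, and its log2 difference of 0.02 was -0.42 within the low rRNA libraries and 0.41 within the high rRNA ones.

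**Figure D2:**
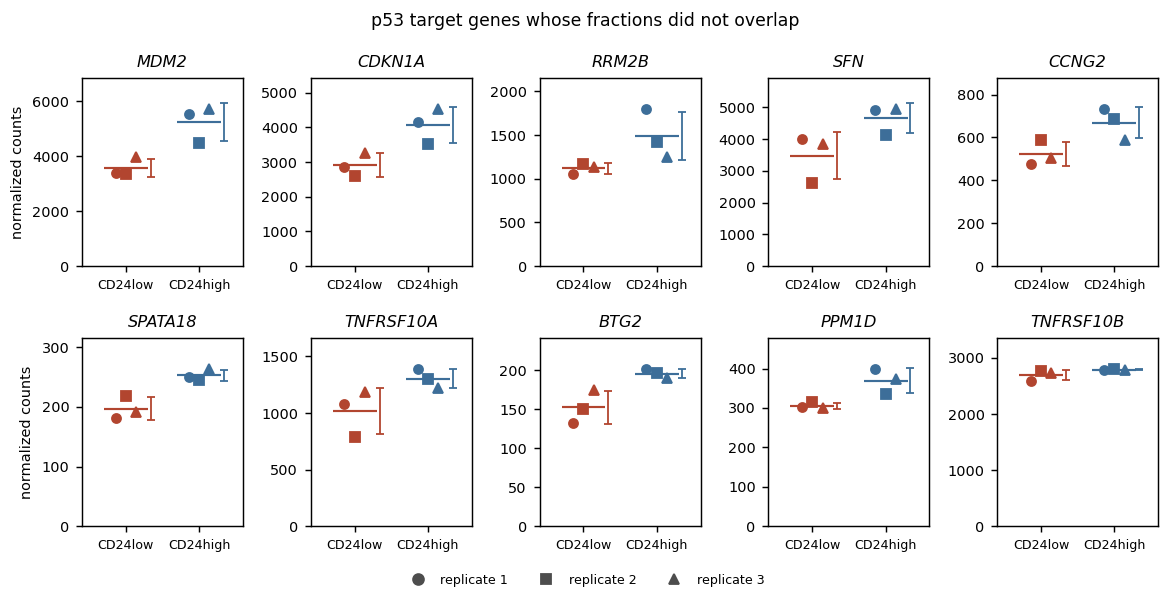
Normalized counts (y axis, from 0) of the 10 p53 target genes whose groups did not overlap, with CD24low left and CD24high right in each panel, 1 symbol per replicate, a line at the mean and a bar for the SD (n = 3). The gap is widest for MDM2 (3347 to 3961 in CD24low against 4459 to 5707 in CD24high) and is very small for TNFRSF10B (2597.5 to 2768 in CD24low against 2779 to 2799.7 in CD24high).

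The death receptors are cell surface proteins of the TNF receptor family that start the extrinsic apoptotic pathway. Their differences were below 0 in 3 of 3 genes (median -0.21), and 0 of 3 passed DESeq2 or limma. At an unadjusted limma p under 0.05, 1 was lower (7.15% of all genes), and 2 were lower without overlap between groups (9.32% of all genes). TNFRSF10A, the TRAIL receptor DR4, had 1076, 791 and 1184 normalized counts in CD24low libraries, against 1387, 1300.1 and 1224.5 in CD24high libraries. All 3 CD24low libraries were lower, CD24low replicate 2 by most, and without that library the log2 difference of -0.38 (SE 0.15) became -0.21. It was -0.18 within the low and -0.41 within the high rRNA libraries. TNFRSF10B, the TRAIL receptor DR5, had 2597.5, 2768 and 2738 in CD24low libraries and 2787, 2799.7 and 2779 in CD24high libraries. Its groups did not overlap either, but the difference was -0.05 (95% interval -0.26 to 0.17), with -0.03 within the low and -0.05 within the high rRNA libraries. FAS, the receptor of Fas ligand, had 600.2, 623 and 639 in CD24low libraries and 813, 635 and 709 in CD24high libraries. Only the lowest CD24high library fell within the CD24low range of FAS, and the log2 difference was -0.21 (SE 0.12, adjusted p = 0.506 by limma and 0.598 by DESeq2), or -0.11 without CD24high replicate 1. Exons of FAS, TNFRSF10A and TNFRSF10B overlap genes on the opposite strand (ACTA2, AC100861.1 and RHOBTB2). The libraries are strand-specific, but the strand setting of the counting is not given in the sources used here.

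The 8 genes of the apoptosis role were divided, 4 below 0 and 4 above, with a median of 0.01. There were 0 called by DESeq2 or limma and 0 at an unadjusted limma p under 0.05. There were 0 without overlap, against 9.32% of all genes lower and 10.2% higher without overlap. BAX, whose product permeabilizes the outer mitochondrial membrane, had 1258, 1271 and 1197 normalized counts in CD24low libraries and 1162, 1069 and 1248 in CD24high libraries. Its groups overlapped only through CD24high replicate 3, and the log2 difference was 0.10 with a 95% interval of -0.14 to 0.34. BBC3, which encodes the BH3-only protein PUMA, had 122, 195 and 177 in CD24low libraries and 111, 198 and 169.5 in CD24high libraries. The libraries of BBC3 with the same number had similar values in both groups. The interval of its log2 difference (0.06) ran from -0.51 to 0.62, and the difference was 0.26 within the low and -0.14 within the high rRNA libraries.

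ZMAT3, an RNA-binding protein gene, had the lowest difference of the apoptosis role (-0.27, SE 0.15), with 975 to 1179.6 normalized counts in CD24low and 1073 to 1525 in CD24high libraries, and it was -0.14 without CD24high replicate 1. TP53INP1, which encodes a stress protein that enhances p53 activity, had the highest difference of all 33 genes (0.24) and also the largest spread, with 112, 254 and 88.2 in CD24low libraries and 120, 102 and 124 in CD24high libraries. CD24low replicate 2 alone was high, and without it the difference was -0.21. It was -0.32 within the low and 0.44 within the high rRNA libraries. TP53I3, which encodes a quinone oxidoreductase linked to oxidative stress (log2 difference -0.14), AEN, a nuclease gene (-0.14), TRIAP1, which encodes a small survival protein of mitochondria (-0.02), and PHLDA3, which encodes an inhibitor of AKT (0.03), all overlapped between groups. Within the low rRNA libraries AEN was at 0.10 and PHLDA3 at 0.32, and within the high rRNA ones AEN was at -0.30 and PHLDA3 at -0.26. Exons of PHLDA3 share 598 bases with AC096677.2 on the same strand, which had at most 68.0 normalized counts in a library, against 910.3 or more for PHLDA3.

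Of the 4 genes of DNA repair and nucleotide supply, RRM2B alone had groups that did not overlap (9.32% of all genes were lower without overlap). It encodes the p53-inducible small subunit of ribonucleotide reductase, which supplies deoxynucleotides outside S phase. Its normalized counts were 1054, 1172 and 1132 in CD24low libraries, against 1796.5, 1426 and 1252 in CD24high libraries. The CD24low libraries were tight (1119 ± 60.0, SD) and the CD24high ones spread (1491 ± 278, SD, n = 3 each), with CD24high replicate 1 the highest. The log2 difference was -0.40 (SE 0.14, adjusted p = 0.271 by limma and 0.144 by DESeq2), and without CD24high replicate 3 DESeq2 gave an adjusted p of 0.0495. Without CD24high replicate 1, the highest library, the difference was -0.26, and it was -0.50 within the low and -0.17 within the high rRNA libraries. DDB2 and XPC, whose products recognise ultraviolet lesions for nucleotide excision repair, had differences above 0 and overlapping groups. DDB2 had 617 to 644 normalized counts in CD24low and 585 to 662 in CD24high libraries, with a log2 difference of 0.01 and a 95% interval of -0.24 to 0.26, and XPC had 658 to 771 in CD24low and 588 to 686 in CD24high libraries, with a difference of 0.17 and an interval of -0.10 to 0.44. POLH, the translesion polymerase eta, was at 529 to 611 in CD24low and 569 to 656 in CD24high libraries (log2 difference -0.15). Between the low and high rRNA libraries the sign differed for DDB2 (0.01 and -0.01) and for POLH (0.0011 and -0.27). Exons of XPC overlap LSM3, AC090004.1 and AC093495.1 on the opposite strand.

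The 6 genes of metabolism, mitochondria and stress had 5 differences below 0 (median -0.13), and 0 of 6 were called by DESeq2 or limma. At an unadjusted limma p under 0.05, 1 was lower (7.15% of all genes). SPATA18, which encodes a mitochondrial quality control protein, was the 1 gene of this role without overlap (9.32% of all genes were lower without overlap). It was at 182, 219 and 191 normalized counts in CD24low libraries, against 251, 245 and 263 in CD24high libraries. The CD24high libraries of SPATA18 were close together and all above the CD24low ones. Its log2 difference of -0.36 (SE 0.14, adjusted p = 0.318 by limma and 0.381 by DESeq2) was -0.37 within the low and -0.40 within the high rRNA libraries. GDF15, a secreted stress cytokine of the TGF-beta family, had 389, 543.5 and 800.3 normalized counts in CD24low libraries and 519, 843 and 931 in CD24high libraries. Replicate 1 was the lowest of each group, and the ranges overlapped widely. The log2 difference of -0.42 had an SE of 0.28, and it was 0.28 within the low rRNA libraries and -1.02 within the high rRNA ones. It was -0.17 without CD24low replicate 1 and -0.69 without CD24low replicate 3.

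The sestrins SESN1 and SESN2, which restrain the growth kinase complex mTORC1, behaved differently across libraries. SESN2 had 198, 418 and 228 normalized counts in CD24low libraries and 211, 464 and 253 in CD24high libraries. Replicate 2 of each group was well above the other libraries of SESN2, and the difference of -0.13 had an SE of 0.33. SESN1 did not share this, with 344 to 422 in CD24low and 390.2 to 439 in CD24high libraries and a log2 difference of -0.10. TIGAR, which encodes a bisphosphatase that slows glycolysis, stood at 413 to 498 in CD24low and 457 to 558 in CD24high libraries (-0.13), and FDXR, the mitochondrial ferredoxin reductase, stood at 358 to 418 in CD24low and 353 to 443 in CD24high libraries (0.01). Within the low and high rRNA libraries SESN2 was at -0.45 and 0.19, SESN1 at 0.03 and -0.18, and FDXR at 0.20 and -0.22.

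The 33 genes differed far more from each other in level than between fractions. Per kb of exon, and over all 6 libraries, the mean normalized count ran from 23.5 for TP53INP1 to 3084 for SFN, a ratio of 131. CCNG1 (1243 per kb) and CDKN1A (1141 per kb) were the other genes above 1000 per kb, and BBC3 (50.9 per kb) and SPATA18 (45.5 per kb) were next above TP53INP1. MDM2 stood at 331 and MDM4 at 68.8 normalized counts per kb. For a single gene, the ratio of its highest to its lowest library had a median of 1.42. It was under 1.5 in 18 genes and above 2 in 3 (TP53INP1 at 2.88, GDF15 at 2.39 and SESN2 at 2.34). The log2 difference between fractions lay within 0.15 of 0 in 17 of the 33 genes.

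**Figure D3:**
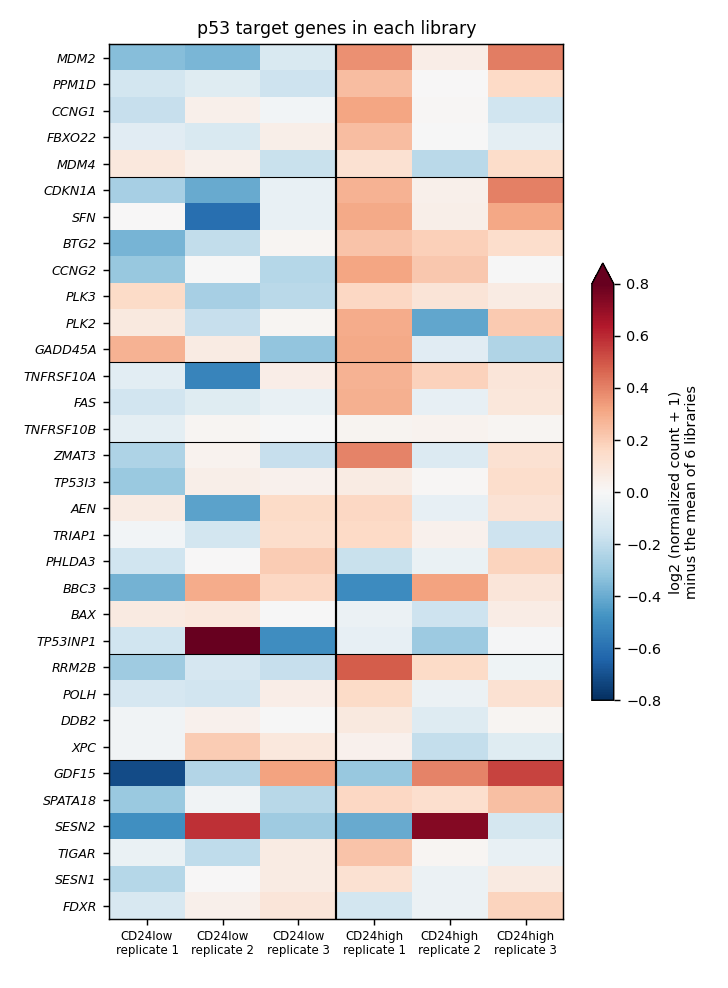
Log2 (normalized count + 1) of each p53 target gene (rows, by role) in each library (columns, CD24low left of the line, CD24high right) minus its mean over the 6 libraries, on a colour scale from -0.8 to 0.8. MDM2 and CDKN1A are below their mean in all 3 CD24low libraries, while SESN2 is high in replicate 2 of both groups and TP53INP1 in CD24low replicate 2.

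Ratios of related genes within a library do not depend on the scaling between libraries, and 5 pairs were compared with a two-sided exact permutation test, which cannot give a p below 0.1 with 3 libraries a group. The log2 ratio of MDM4 to MDM2 was -2.09, -2.11 and -2.57 in CD24low libraries, against -2.75, -2.78 and -2.78 in CD24high libraries. Every CD24low library had more MDM4 per MDM2 than any CD24high library, and the CD24high libraries were close together. The mean difference of this ratio was 0.51, with an exact permutation p = 0.1 and 0.167 after Benjamini-Hochberg adjustment over the 5 pairs. The log2 differences were -0.03 for MDM4 and -0.55 for MDM2, so this ratio largely repeats the MDM2 difference in the same libraries. The ratio of CCNG2 to CCNG1 was lower in CD24low libraries by 0.24 on average (-2.82 ± 0.08 in CD24low and -2.58 ± 0.11 in CD24high cells, SD, exact permutation p = 0.1). The ratio of TNFRSF10A to TNFRSF10B averaged -1.43 ± 0.33 in CD24low and -1.10 ± 0.09 in CD24high cells (SD, exact permutation p = 0.1). In both of these pairs the groups did not overlap, and the adjusted p was 0.167 as well. The ratios of SESN1 to SESN2 (difference 0.03, exact permutation p = 0.9) and of PLK3 to PLK2 (difference -0.16, exact permutation p = 0.7) overlapped between groups.

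**Figure D4:**
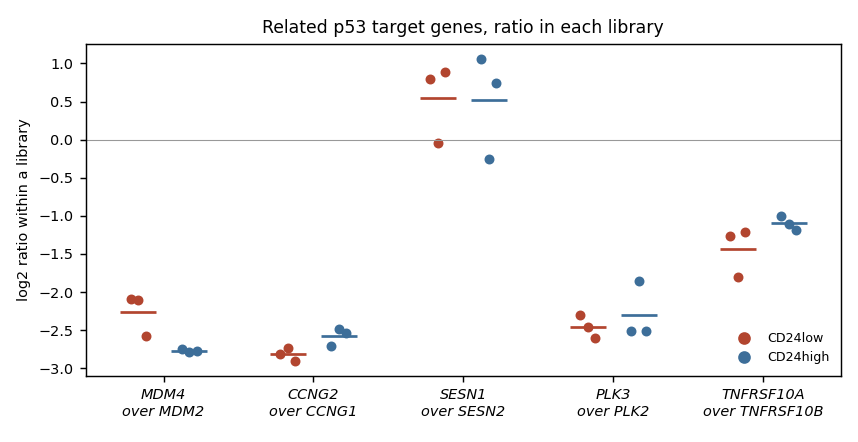
Log2 ratio of 2 related p53 target genes (y axis) in each library for 5 pairs, with CD24low left of CD24high in each pair and a line at the mean (n = 3 a group). The MDM4 to MDM2 ratio is -2.57 to -2.09 in CD24low and -2.78 to -2.75 in CD24high libraries, and the sestrin and polo-like kinase ratios overlap.

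CDKN2A had 0 reads in all 6 libraries, which allows at most 3 reads, or 2.49 to 4.38 normalized counts, in a library. Of 26 listed members of the p53 family and regulators of p53, 24 were tested, and TP73 and CDKN2A were below the filter. Their median log2 difference was 0.03, with 12 below 0 and 12 above, and 0 were called by limma. At an unadjusted limma p under 0.05, 1 was lower (7.15% of all genes) and 1 higher (1017 of 16047 genes). In 6 of the 24 every CD24low library was above every CD24high one (10.2% of all genes), and in 1 below (9.32% of all genes).

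DESeq2 called 1 regulator lower (1.15% of all genes) and 1 higher (1.36% of all genes). TP63, a p53 family member and a basal epithelial transcription factor, had 88.1, 114 and 95.0 normalized counts in CD24low libraries, against 291, 258 and 190.0 in CD24high libraries (log2 difference -1.29, SE 0.20). No library of TP63 in CD24low cells reached the lowest CD24high library, and the DESeq2 adjusted p was 0.00262 or less without any 1 library. HIPK2, a kinase that phosphorylates p53, had 1376, 2075 and 1075.5 in CD24low libraries, against 825, 856 and 929 in CD24high libraries (0.74, SE 0.21, DESeq2 adjusted p = 0.016). The HIPK2 call held only without CD24low replicate 3, and the adjusted p was up to 0.165 without another library and 0.139 with the rRNA class as a covariate. PRKDC, the catalytic subunit of the DNA-dependent kinase (log2 difference 0.21), HDAC1, a histone deacetylase (0.20), and TP53BP1, a repair factor that binds p53 (0.21), had no overlap between groups and adjusted p values from 0.373 to 0.596 by DESeq2.

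A further 72 genes were listed as direct p53 targets, also with earlier results of these data known. Of these other direct targets 67 were tested, and CDIP1, PLTP, RRAD, TNFRSF10C and VWCE were below the filter. Their median log2 difference was -0.06, with 41 below 0 and 26 above, and 0 were called by limma. DESeq2 called 3 lower (1.15% of all genes) and 1 higher (1.36% of all genes). At an unadjusted limma p under 0.05, 17 were lower (7.15% of all genes) and 2 higher (1017 of 16047 genes). In 15 of the 67 (22.4%, against 9.32% of all genes) every CD24low library was below every CD24high one, and in 3 above (10.2% of all genes). HES2, a helix-loop-helix repressor gene, had 90.8, 117 and 139 normalized counts in CD24low libraries, against 215, 254 and 314 in CD24high libraries (log2 difference -1.17, DESeq2 adjusted p = 0.000221). LIMK2, a kinase of the actin cytoskeleton, had 753, 780.4 and 893 in CD24low libraries, against 1136, 1086 and 1268 in CD24high libraries (-0.52, DESeq2 adjusted p = 0.0136). PERP, a desmosomal protein gene that p63 is also known to activate, had a log2 difference of -0.58 and a DESeq2 adjusted p of 0.00256.

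CSF1, the macrophage growth factor, was the higher one, with 222, 364 and 151 normalized counts in CD24low libraries, against 78.8, 91.9 and 95.0 in CD24high libraries (log2 difference 1.37, DESeq2 adjusted p = 0.00037). The lowest CD24low library of CSF1 was above all CD24high libraries. The calls of HES2 and CSF1 by DESeq2 held without each library in turn. That of PERP was lost without CD24low replicate 1 (0.0594), and that of LIMK2 without CD24low replicate 1 (0.161), CD24low replicate 2 (0.0942) or CD24high replicate 3 (0.0806), and with the rRNA class as a covariate (0.0536). TRIM22, an interferon-responsive ubiquitin ligase gene, had a log2 difference of -0.70 and a DESeq2 adjusted p of 0.0566.

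**Figure D5:**
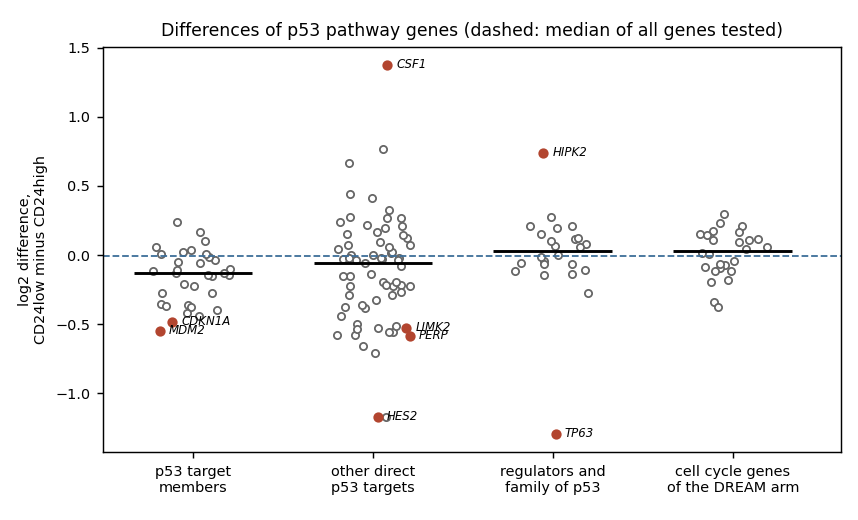
Log2 difference (y axis, CD24low minus CD24high) of every tested gene of 4 p53 pathway lists (x axis), 1 point per gene, with filled named points for genes called by DESeq2 and a line at the list's median. The medians are -0.13 for the 33 members, -0.06 for other direct targets, 0.03 for regulators and 0.03 for cell cycle genes, and the dashed line is the median of all genes tested, -0.01.

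The cell cycle genes that p53 is known to lower indirectly, through p21 and the DREAM repressor complex, were set beside CDKN1A. All 26 on the list were tested, and 0 were called by limma, DESeq2 or edgeR, with 0 at an unadjusted limma p under 0.05. Their median log2 difference was 0.03, with 11 below 0 and 15 above. The median was 0.16 within the low rRNA libraries and -0.07 within the high rRNA ones. CDK1, the mitotic kinase, had 2033, 1696 and 2426 normalized counts in CD24low libraries and 3092, 2319 and 2373 in CD24high libraries, and MYBL2, an activator of mitotic genes, had 3051, 2506 and 2804 in CD24low libraries and 2105, 1995 and 2757 in CD24high libraries. The groups of both overlapped, and their log2 differences were -0.34 and 0.30. CCNB2, the cyclin B2 gene, was the 1 gene of this list without overlap (10.2% of all genes were higher without overlap). Its log2 difference was 0.18, with an adjusted p of 0.554 by DESeq2. CDC20, an activator of the anaphase-promoting complex, CDC25A, a phosphatase that activates cyclin-dependent kinases, and PLK1, the mitotic polo-like kinase, had log2 differences of 0.23, -0.38 and 0.21.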

How the data were processed

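RNA-seq values of 3 CD24low and 3 CD24high libraries were used. The authors deposited a signal per gene, namely read counts scaled by size factors of DESeq2, per the submitters' processing notes and the values themselves. STAR 2.5.2, R 3.5.0 and hg38 are named per the submitters' processing notes. Before sequencing, rRNA was removed and stranded libraries were prepared, per the labels' protocols. Not given in the sources used here are the annotation release, the read counter and its strand setting. Within a library each value was a whole multiple of 1 step, worth 0.83 to 1.46 normalized counts. Dividing by it gave the reads, and 100% of values came out whole within 0.1 reads. A count of 0 allows up to 3 reads, for counting error only. Replicates differed by more than sampling noise, and each library counted once.

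GENCODE 29 gave symbols, coordinates and exon lengths, and it matched 58261 of 58381 IDs. The main test was two-sided limma with a trend, on log2 of the normalized count plus 1 (which understates changes of low genes), with group as its single term. It covered 16047 genes with a mean of at least 10. Adjustment was by Benjamini-Hochberg over all of these, at 0.05. The recovered reads were also tested with DESeq2 and with edgeR's quasi-likelihood test. Members and lists were chosen with earlier results of these data known. Named genes are all 33 members and, from each other list, up to 6 genes of smallest limma p with a mean of at least 50, plus CDKN2A always. Some genes that the rule took are left out here. Scripts were tested on simulated data. Fits of DESeq2 without each library, without both libraries numbered 3, with the rRNA class, with a replicate term and without the filter were added after seeing the data. The elements found under the looser rule were also added then.

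Versions were matplotlib 3.10.9, scipy 1.17.1, numpy 2.4.6, pandas 2.3.3, Python 3.11.15, DESeq2 1.42.0, edgeR 4.0.16, limma 3.58.1 and R 4.3.3.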

Additional observations from a re-analysis of the deposited data

How the results depend on the processing

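The members' median log2 difference of -0.13 stayed below 0 under every alternative tried (-0.20 to -0.11), and the differences of MDM2 and CDKN1A were negative in each. The count of members called by limma, 0, became 2 with DESeq2 and 2 with a replicate block in limma or edgeR. The count by DESeq2, 2, ran from 0 to 2 without 1 library. It was 1 without both libraries numbered 3, 1 with the rRNA class as a covariate and 1 without the filter on low values. That gene was MDM2 in each. With a replicate block in DESeq2 the count was 3 (MDM2, CDKN1A and SFN). Counts over all genes are not given here for these added DESeq2 fits, so their member counts have no share beside them. Over all genes limma called 0, against 164 without the filter, 402 by DESeq2, 716 with a replicate block in limma, 705 with one in edgeR, 103 without both libraries numbered 3, and 0 to 366 without 1 library, with 366 without CD24low replicate 3. Regulators called numbered 0 by limma, 1 without the filter, 2 by DESeq2, 2 and 2 with the block, 1 without both libraries numbered 3 and 0 to 2 without 1 library. Other direct targets numbered 0, then 2 without the filter, 4 by DESeq2, 9 (limma) and 11 (edgeR) with the block, and 0 to 3 without 1 library.

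The labels give groups the same replicate numbers, and no label says that a number marks a shared culture. Deviations of same-numbered libraries correlated at 0.27, 0.30 and 0.05. Those of differently numbered libraries correlated at -0.26, 0.08, -0.20, -0.17, -0.11 and 0.03, so same-numbered libraries mostly deviated more alike. The exception was CD24low replicate 3, at 0.08 with CD24high replicate 1 and 0.05 with CD24high replicate 3. The main test had no replicate term because the labels name no shared culture. Whether the numbers mark pairs is not settled, and the replicate block raised the number of calls. Without both libraries numbered 3, PLK2 was 0.00558 and MDM4 0.11. With the rRNA class, TRIAP1 was 0.064, GADD45A -0.0044 and FDXR -0.013. Scaled to totals, GADD45A was -0.011, FDXR -0.020 and DDB2 -0.024. Without 1 library the ranges that crossed 0 were -0.25 to 0.039 for AEN, -0.22 to 0.018 for CCNG1, -0.21 to 0.55 for TP53INP1, -0.45 to 0.21 for SESN2, -0.28 to 0.075 for PLK2, -0.060 to 0.13 for PHLDA3, -0.15 to 0.046 for MDM4, -0.18 to 0.26 for BBC3, -0.10 to 0.058 for TRIAP1, -0.11 to 0.18 for GADD45A, -0.061 to 0.10 for FDXR, -0.044 to 0.046 for DDB2, -0.36 to 0.32 for the SESN1 to SESN2 ratio and -0.27 to 0.058 for the PLK3 to PLK2 ratio. Without 1 library, the differences of SFN, TNFRSF10A, RRM2B, ZMAT3, FAS and GDF15 kept their sign but moved by over 1.5 times, as given above. So did those of PLK3 (-0.35 and -0.14), XPC (0.11), TP53I3 (-0.03) and TIGAR (-0.19 and -0.04). The same held for TNFRSF10B (-0.02), BAX (0.04 and 0.16), FBXO22 (-0.18 and -0.01) and SESN1 (-0.16 and -0.01). The cause was not tested. Low counts are least precise in CD24high replicate 3, which had the fewest reads.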
